A study of Rattus norvegicus with 8 samples.

Results

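The fibrillar collagens and small proteoglycans of connective tissue were followed here in the basolateral amygdala of rats during epileptogenesis. The set holds 9 genes: the collagen chains Col1a1, Col1a2, Col3a1 and Col5a2, the proteoglycan core proteins Bgn, Dcn and Lum, the adhesive glycoprotein Fn1 and the elastic fibre protein Fbln5. They were taken by name, as every probe set whose annotation gave that single symbol, which found 12 probe sets for 9 genes among the 14217 named genes of the array. Of the 12 probe sets, 11 passed a filter on dim signals (a mean log2 signal above 4.35), and each of the 9 genes kept at least 1.

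Fibrillar collagens are long triple helices that are secreted as precursors and packed side by side into fibres. Small leucine-rich proteoglycans sit on these fibres and regulate their thickness and spacing, fibronectin links the matrix to cells through integrins, and fibulin-5 takes part in the assembly of elastic fibres. In the brain such matrix is scarce among neurons and is found mainly in the meninges and around blood vessels, where fibroblasts make it, and it can be laid down after injury.

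Each of the 8 Affymetrix arrays held amplified RNA pooled from 2 rats, 16 rats in all, and the 4 groups of 4 rats gave 2 arrays each, lettered A and B. Control rats had been operated on but not stimulated, whereas epileptogenic rats had undergone amygdala stimulation followed by status epilepticus with at least 40 of the discharges that the labels call HAFDs, and showed no spontaneous seizures during the study. All rats had 5 habituation sessions. On day 8 all of them received 2 trials with a footshock (1.5 mA, 1 s) and a tone (75 dB, 20 s), the tone ending with the shock in paired training and following it in unpaired training. The rats were decapitated 3 h later, and the lateral and basal nuclei were cut out by laser. Every group had thus been shocked, and no untrained rats were compared. The labels name neither strain nor age, and call the arrays biological replicates without saying what the letters stand for.

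The values are MAS5 signal intensities, a measure of the brightness of a probe set on a linear scale. The median signal per array ran from 29.0 to 43.2, and the number of arrays limits the precision. Log2 signals were compared with limma over 18625 probe sets, and a probe set was called where its Benjamini-Hochberg adjusted p was under 0.05. Arrays of the same letter deviated together from their group means, with correlations of 0.321 to 0.407 across probe sets in 6 pairs of groups. A fit with the letter as a block is therefore given beside the first fit wherever it changes a call.

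Genes of the set were higher in epileptogenic than in control amygdala in 8 of 9 cases, but only Bgn passed the test in the fit without the block. The median log2 difference of the 9 genes, each read by its brightest probe set, was 1.19, against -0.11 over all tested probe sets. Without the block 1 of the 11 member probe sets was called higher, where 2.81% of all probe sets were. With the letter as a block 6 of the 11 were called higher, those of Bgn, Col1a1, Col1a2, Col3a1, Lum and Fn1, where 7.58% of all probe sets were. All 4 epileptogenic arrays lay above all 4 control arrays in 5 of the 11, a pattern shown by 7.29% of all probe sets. In such pooled tissue, more cells of a type and more RNA per cell cannot be told apart.

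**Figure D1:**
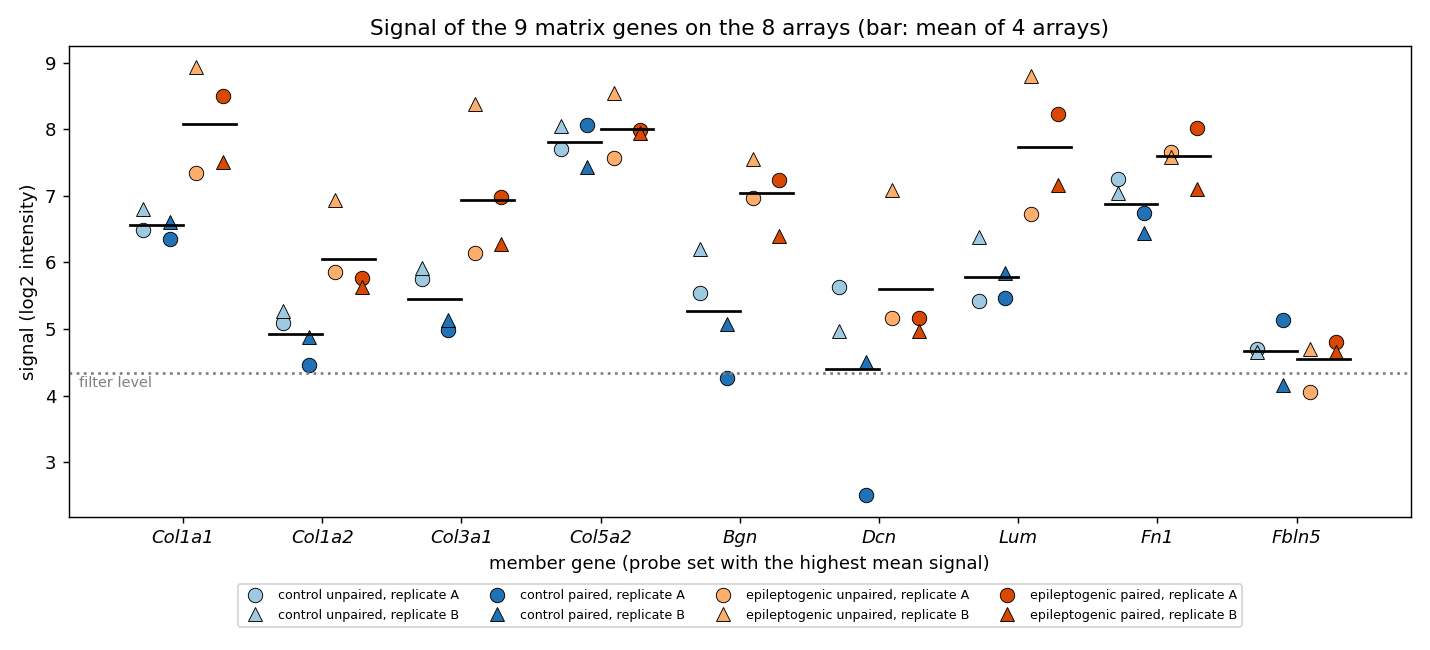
Log2 signal of each of the 9 genes on the 8 arrays, with circles for replicate A and triangles for replicate B, colours for the 4 groups and bars for the mean of 4 arrays. Epileptogenic arrays do not overlap with control arrays for Col1a1, Col1a2, Col3a1, Bgn and Lum, and the highest point of most genes is epileptogenic unpaired B.

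The chains of type I collagen, the most abundant fibrillar collagen of connective tissue, were both brighter after status epilepticus. The Col1a1 signal was 89.4 and 112 on the control unpaired arrays A and B and 81.5 and 97.7 on the control paired arrays. It was 162 and 488 on the epileptogenic unpaired arrays A and B and 363 and 182 on the epileptogenic paired arrays. Every epileptogenic array thus exceeded every control array, while the epileptogenic arrays themselves spread over 1.59 on the log2 scale and the control arrays over 0.46. The fold difference was 2.85, a log2 difference of 1.51 ± 0.36 (SE; limma adjusted p = 0.0574, and 0.0132 with the block). A further Col1a1 probe set had signals between 0.628 and 3.13 on all arrays, far under the filter level of 20.3, and gave no usable level.

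Col1a2, which encodes the partner chain of type I collagen, had signals of 34.1, 38.6, 21.9 and 29.5 on the control arrays (unpaired A and B, then paired A and B). On the epileptogenic arrays in the same order they were 57.6, 123, 54.5 and 49.5. The groups did not overlap, and epileptogenic unpaired B stood apart from 3 arrays that were close together. The log2 difference was 1.12 ± 0.32 (SE), 2.18-fold, with a limma adjusted p of 0.0954 and of 0.0224 with the block. The dimmer Col1a2 probe set differed by 1.36 ± 0.52 but was not called in either fit (adjusted p = 0.202 and 0.0939), and its groups overlapped, since epileptogenic paired B was at 20.5. Over the 8 arrays the probe sets of Col1a2 correlated at 0.82.

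Col3a1 encodes the homotrimeric type III collagen of vessel walls and early repair tissue. Its control signals were 53.7 and 60.7 after unpaired and 31.6 and 35.3 after paired training. Its epileptogenic signals were 70.3 and 332 after unpaired and 126 and 77.7 after paired training. The groups did not overlap, although the gap between the lowest epileptogenic and the highest control array was only 0.21 on the log2 scale. The log2 difference was 1.49 ± 0.44 (SE), 2.82-fold (limma adjusted p = 0.107, and 0.0294 with the block). Without epileptogenic unpaired B it was 0.93.

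Col5a2, a chain of the type V collagen that helps to start and limit fibre growth, was not called. Its brighter probe set had signals of 173 to 268 on control and of 190.5 to 373 on epileptogenic arrays, and the groups overlapped widely. The log2 difference was 0.20 with a 95% interval from -0.40 to 0.79 (limma adjusted p = 0.747, and 0.605 with the block). The further Col5a2 probe set, which followed the brighter one with a correlation of 0.93 over 8 arrays, differed by 0.45 (interval -0.24 to 1.15).

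Col3a1 and Col5a2 are neighbouring genes in the RefSeq annotation of the rat (GRCr8), and their unequal change was tested within arrays. With the brighter Col5a2 probe set, the difference of Col3a1 exceeded that of Col5a2 by 1.30 on the log2 scale. The epileptogenic and control arrays did not overlap in this measure. It gave a two-sided exact permutation p of 0.0286, the smallest that 4 against 4 arrays allow (0.0571 adjusted over the 2 neighbour pairs compared). With the further Col5a2 probe set the groups did overlap. The log2 signals of Col3a1 and that probe set were 6.28 and 7.14 on epileptogenic paired B. On control unpaired A they were 5.75 and 6.50, a smaller gap. No permutation test was run with that probe set. The pairs were picked after the values were seen.

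**Figure D2:**
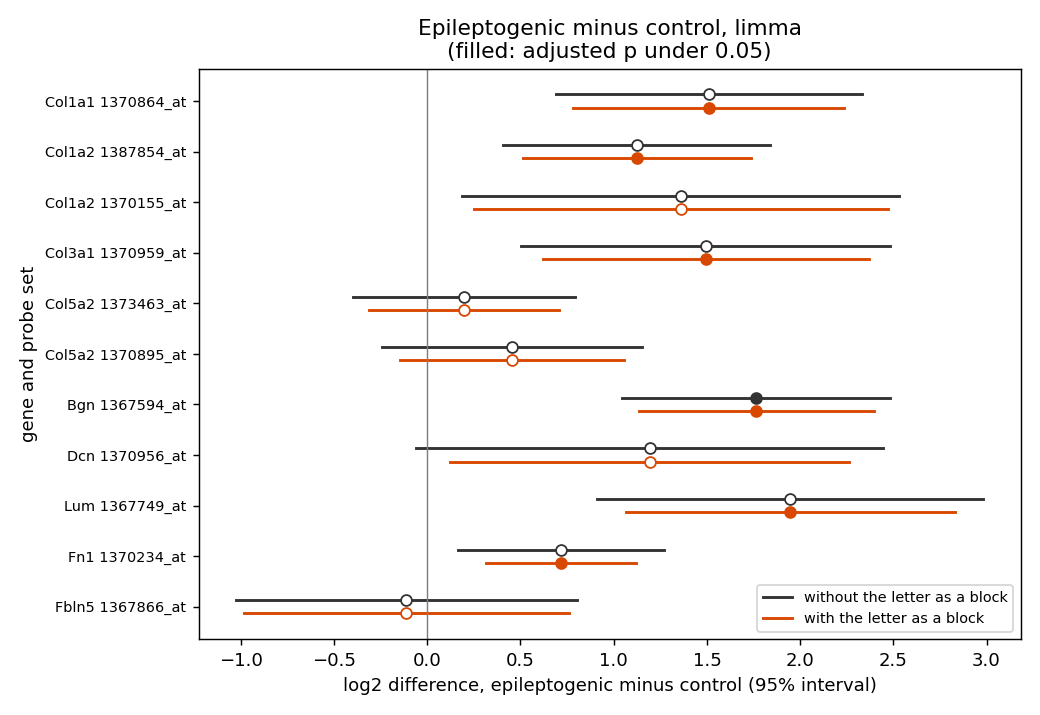
Log2 difference between epileptogenic and control arrays for each of the 11 tested probe sets with its unadjusted 95% interval, black without and orange with the letter as a block, filled where the adjusted p was under 0.05. Bgn is filled in both fits, while Col1a1, one probe set of Col1a2, Col3a1, Lum and Fn1 are filled with the block alone.

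Bgn rose. It encodes biglycan, a small proteoglycan that binds collagen and also acts as a danger signal on innate immune receptors when it is released. Its signal was 46.5 and 73.7 on control unpaired A and B, and 19.3 and 33.6 on control paired A and B. On the epileptogenic arrays it was 126 and 187 after unpaired and 150.3 and 83.8 after paired training. All 4 epileptogenic arrays exceeded all 4 control arrays, and the mean log2 signal was 7.03 ± 0.49 (SD, n = 4) against 5.27 ± 0.81. The log2 difference of 1.76 ± 0.32 (SE), 3.40-fold, had a limma adjusted p of 0.0201, and of 0.00328 with the block. The call was lost, however, with any of 4 single arrays left out: the adjusted p was 0.0625 without control unpaired A, 0.0706 without control paired A, 0.0886 without epileptogenic unpaired B and 0.0773 without epileptogenic paired A. In these 4 fits the difference stayed between 1.55 and 1.62.

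Lum, which encodes lumican, a keratan sulphate proteoglycan of collagen-rich tissue, showed the largest difference of the 9 genes. Control signals were 42.7, 83.6, 44.4 and 57.3 (unpaired A and B, then paired A and B), and epileptogenic signals were 106, 445, 299 and 143. The lowest epileptogenic array lay above the highest control array, by 0.34 on the log2 scale. The difference was 1.95 ± 0.46 (log2, SE), 3.86-fold, which narrowly missed the threshold without the block and passed with it (limma adjusted p = 0.0533 and 0.0102). Across the 8 arrays Lum followed Col1a1 with a Pearson correlation of 0.99, given as a description since both rest on the same arrays.

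Dcn, the gene of decorin, a proteoglycan that binds collagen and TGF-beta, was not called in either fit. Its signals were 49.7, 31.4, 5.66 and 22.7 on the control arrays (unpaired A and B, then paired A and B) and 35.9, 135, 36.0 and 31.4 on the epileptogenic arrays. The groups overlapped, with control paired A far below and epileptogenic unpaired B far above the others. The log2 difference was 1.19 with a 95% interval from -0.06 to 2.45 (limma adjusted p = 0.294, and 0.122 with the block). It was 0.69 without control paired A and 0.72 without epileptogenic unpaired B. Lum and Dcn are neighbours as well, and the difference of Lum exceeded that of Dcn by 0.75, with a two-sided exact permutation p of 0.314 (0.314 adjusted over the 2 pairs).

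For 4 of the 9 genes (Col1a2, Lum, Col5a2 and Fbln5) the RefSeq promoter table held a sequence, and the 250 bases before the gene start were searched on both strands for 11 motifs. Stretches of the Col1a2 and Lum promoters are shown because the brightest probe set of each gene was higher on epileptogenic arrays without overlap. The other tested Col1a2 probe set did overlap. A further reason was that CCAAT, the binding sequence of the factor NF-Y, was present in both, read on the opposite strand as ATTGG. The stretches were picked after the matches were seen. Capitals mark the CCAAT match and, in Col1a2, the TATA box TATAAA, which do not overlap. The Col1a2 stretch is chr4:33518307-33518406, 250 to 151 bases before the RefSeq start, and the Lum stretch is chr7:34245526-34245625, 180 to 81 bases before it. Both are on the + strand of GRCr8.
Col1a2: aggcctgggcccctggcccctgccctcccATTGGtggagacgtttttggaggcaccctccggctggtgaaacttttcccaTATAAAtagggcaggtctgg
Lum: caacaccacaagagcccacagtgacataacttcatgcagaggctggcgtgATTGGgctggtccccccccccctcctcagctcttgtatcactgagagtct

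The CCAAT match begins 221 bases before the annotated start in Col1a2 and 130 bases before it in Lum, and Col1a2 also has TATAAA, 170 bases before it. Within their 250 bases Col5a2 and Fbln5 had no match to either. Over the 33469 promoters of the table, CCAAT was in 34.0% and TATAAA in 12.9%. The sequence bound by Smad proteins, CAGAC, occurred 2 times in Col1a2, 3 times in Lum, 1 time in Col5a2 and 2 times in Fbln5, and in 42.9% of all promoters. TTTAAA had 1 match, in Col5a2 (12.3% of all promoters), and the GC box GGGCGG had 1, in Fbln5 (30.5%). The other 6 motifs had no match in the 4 promoters: GTCTAGAC (0.173% of all promoters), TGANTCA (6.34%), CACGTG (5.59%), TTCNNNGAA (7.67%), GGAATG (12.1%) and 1 form of the serum response element (0.0747%). A match describes the letters only.

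Fn1, which encodes the adhesive glycoprotein fibronectin of plasma and matrix, showed a smaller difference. Control signals were 153, 132, 107 and 87.2 (unpaired A and B, then paired A and B), and epileptogenic signals were 201, 192, 259 and 138. The groups overlapped, as epileptogenic paired B lay below control unpaired A. The log2 difference was 0.72 ± 0.25 (SE), 1.65-fold (limma adjusted p = 0.157, and 0.0247 with the block).

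Fbln5 did not follow the others. Its signal was between 17.9 and 35.3 on control and between 16.7 and 27.9 on epileptogenic arrays, close to the filter level of 20.3. The log2 difference was -0.11 with a 95% interval from -1.03 to 0.80 (limma adjusted p = 0.920, and 0.880 with the block). Over the 8 arrays its correlations with the other 8 genes ran from -0.30 to 0.64, with a median of 0.03. The 28 pairs among those 8 genes ran from 0.32 to 0.99 with a median of 0.78.

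The size of the difference varied between arrays in a shared way. Relative to the control mean, the mean log2 signal of the 9 genes was 0.20 and 0.40 on control unpaired A and B and -0.42 and -0.18 on control paired A and B. On the epileptogenic arrays it was 0.64 and 1.86 after unpaired and 1.22 and 0.66 after paired training. Epileptogenic unpaired B was the highest of the 8 arrays for 7 of the 9 genes, and for 13.5% of all tested probe sets. Epileptogenic paired A came second among the epileptogenic arrays for 6 of these 7, Col1a2 being the exception, and it was the highest of all 8 arrays for Fn1.

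Leaving out epileptogenic unpaired B left a single array in its group. It brought the log2 difference of Col1a1 from 1.51 to 1.11, of Col1a2 from 1.12 to 0.85 and of Lum from 1.95 to 1.43. With the block and without that array the log2 difference was 1.67 for Bgn, 1.45 for Lum and 1.08 for Col1a1. Epileptogenic unpaired A was the lowest epileptogenic array for Col1a1, Col3a1 and Lum. Without it and without the block, these genes and Bgn had log2 differences of 1.91, 2.05, 2.46 and 1.91.

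**Figure D3:**
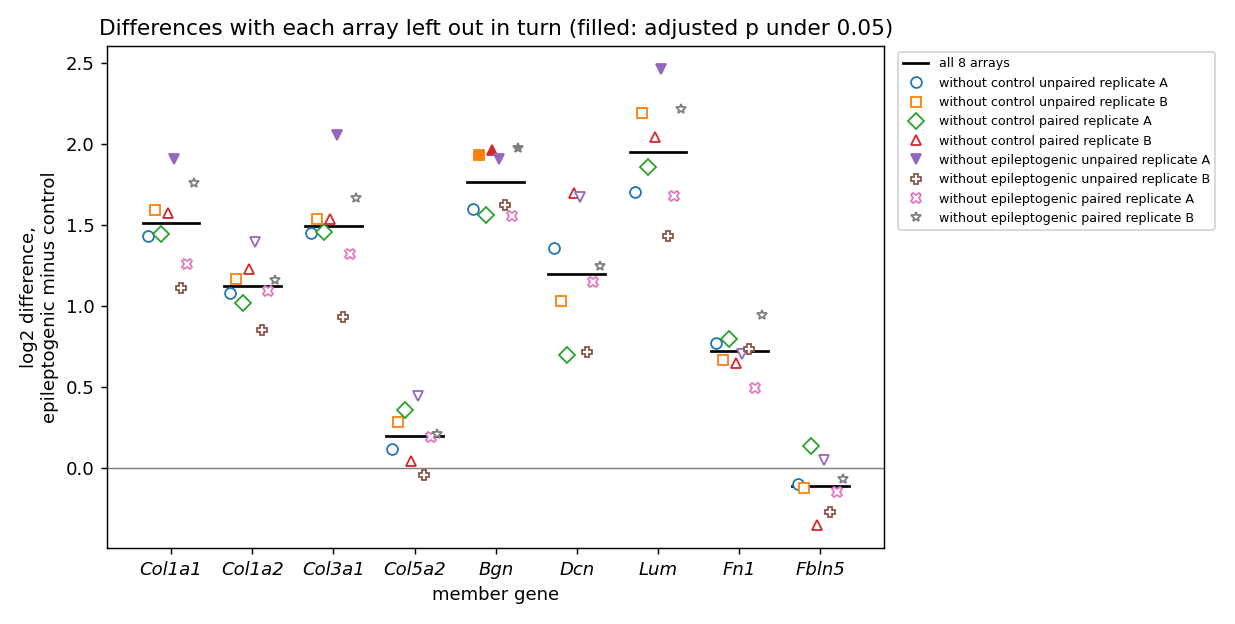
Log2 difference of each gene in the fit without the block, with all 8 arrays (bar) and with each array left out in turn (symbols, filled where the adjusted p was under 0.05). Leaving out epileptogenic unpaired B gives the lowest value for Col1a1, Col1a2, Col3a1, Col5a2 and Lum, whereas leaving out epileptogenic unpaired A gives the highest for these 5.

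Few of the differences passed within a single training. After unpaired training the median of the 9 genes was 1.22 and after paired training 1.53 on the log2 scale. Dcn differed by 0.82 and 1.57 and Fn1 by 0.47 and 0.97 after unpaired and paired training, without a call. Bgn differed by 1.39 ± 0.45 (SE; limma adjusted p = 0.247) after unpaired and by 2.14 ± 0.45 (adjusted p = 0.0906) after paired training. After unpaired training 0 of the 11 probe sets were called higher in limma, with or without the block, where 0.29% and 3.4% of all probe sets were, and 5 of 9 genes had an unadjusted p under 0.05, against 12.5% of all probe sets. After paired training 0 were called, where 0.521% of all were, with 6 of 9 genes at an unadjusted p under 0.05, against 9.92% of all probe sets. With the block Bgn was called there (adjusted p = 0.0173), where 3.45% of all probe sets were.

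The difference between the trainings was tested directly as an interaction. In limma 0 of the 11 member probe sets were called, as were 0% of all probe sets, and 0 of 9 genes had an unadjusted p under 0.05 (274 of all probe sets). The interaction of Bgn was 0.76 on the log2 scale with a 95% interval from -0.68 to 2.19. The interval includes 0 and reaches further above it than below, so these arrays leave its size uncertain. The paired and unpaired comparisons rest on different arrays.

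Paired and unpaired training were also compared as such. Over both animal groups 0 of 11 probe sets were called in limma, with or without the block, as were 0% of all probe sets, while 2 of 9 genes and 214 of all probe sets had an unadjusted p under 0.05. The 2 genes were Bgn and Dcn, with log2 differences (paired minus unpaired) of -0.83 ± 0.32 and -1.43 ± 0.56 (SE; limma adjusted p = 1.00 for both). In control rats all 9 genes had lower means after paired training, with a median of -0.51, and 0 were called (0% of all probe sets; 313 at an unadjusted p under 0.05, among them Bgn and Dcn). In epileptogenic rats the median was -0.13, 8 of 9 means were lower and 0 were called (0% of all; 228 at an unadjusted p under 0.05 and none of the 9 genes). Control paired A, the lowest array for Bgn and Dcn, enters the first 2 of these comparisons.

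Other genes of the collagen matrix were read from 7 companion lists, in which 81 genes were tested for epileptogenic against control. Of these 10 rose and 0 fell without the block, and 20 rose and 2 fell with it. Over all probe sets 2.81% were higher and 0.827% lower without the block, and 7.58% higher and 8.65% lower with it. Genes named below only because they passed with the block were named after their values were seen. Col4a6, Lox, Loxl3, Fbln1, Itga1, Itgb3, Cd44 and Tgfbi had control means under the filter level and passed only through their epileptogenic arrays. They are in the counts and medians of their lists, so the filter can shift those medians upward. All 6 tested fibrillar collagens outside the set missed the threshold in both fits, with a median of -0.08, and Col2a1 of cartilage and Col11a1 showed -0.25 ± 0.44 and -0.17 ± 0.30 (log2, SE; limma adjusted p = 0.817 and 0.819). Of 14 network and other collagens 0 were called, at a median of 0.11. The basement membrane chain gene Col4a5 showed 1.07 ± 0.27 (adjusted p = 0.0682) and passed with the block (0.00205). With the block the neuronal collagen genes Col19a1 and Col25a1 fell, with log2 differences of -0.70 (adjusted p = 0.0448) and -0.72 (adjusted p = 0.0186). In the fits without the block both passed in 0 of 8 with an array left out, and Col25a1 was at -0.42 without epileptogenic paired A.

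Enzymes and chaperones that modify, fold and cross-link collagen had a median of 0.35, and 3 of 21 rose. They were P4hb, a subunit of prolyl 4-hydroxylase and a disulphide isomerase, by 0.90 ± 0.17 (log2, SE; limma adjusted p = 0.0212), Sparc, a collagen-binding glycoprotein, by 0.92 ± 0.20 (0.0373), and the lysyl hydroxylase gene Plod1 by 1.45 ± 0.33 (0.0477). With the block Ppib and Colgalt1 passed too. When single arrays were left out, P4hb and Sparc passed in 1 and Plod1 in 0 of 8 fits. P4hb and Sparc are also made by many cells that secrete no fibrillar collagen.

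Among other small leucine-rich proteoglycans 3 genes were bright enough for the test, with a median of 1.25. Omd, which encodes osteomodulin, rose by 1.55 ± 0.29 (log2, SE; limma adjusted p = 0.0236), from log2 signals of 4.24 to 4.99 on control to 5.73 to 6.28 on epileptogenic arrays, without overlap. It passed in 1 of the 8 fits with an array left out. Ogn, the gene of osteoglycin, passed with the block only (1.25 ± 0.38, adjusted p = 0.0416). Like Lum and Col1a1 it was highest on epileptogenic unpaired B, at a log2 signal of 8.19.

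In elastic fibres and fibulins, the list closest to Fbln5, the median was 0.59 with the dim Fbln1 included, and 1 of 9 genes rose. This was Efemp1, the gene of fibulin-3, by 1.48 ± 0.23 (log2, SE; limma adjusted p = 0.0100), which passed in all 8 fits with an array left out, and its log2 signals of 5.25 to 6.63 on control and 7.09 to 7.51 on epileptogenic arrays did not overlap. With the block Efemp2 passed as well (adjusted p = 0.0364).

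Receptors of collagen and fibronectin had a median of 0.46, with 3 of 16 called. Cd44, a receptor of hyaluronan and collagen that leukocytes and reactive astrocytes also carry, rose by 2.98 ± 0.52 (SE) on the log2 scale (limma adjusted p = 0.0171). Its call was lost without epileptogenic unpaired B or epileptogenic paired A. The lowest difference with an array left out was 2.35, without control paired A. The mean log2 signal of Cd44 on control arrays, 4.02, was under the filter level of 4.35. The integrin gene Itgb3 rose by 2.58 ± 0.45 (0.0178). Its call was lost without epileptogenic unpaired A, epileptogenic unpaired B or epileptogenic paired B, and the lowest difference was 2.17, without epileptogenic paired B. All 4 control arrays of Itgb3 were under the filter level, at a mean of 3.48. Both genes passed the filter on the mean of all arrays only through the level of their epileptogenic arrays, so their control levels, and with them the size of the differences, are uncertain. Itgb1, the common beta chain of fibronectin and collagen receptors, rose by 1.21 ± 0.24 (0.0267; 3 of 8 fits). With the block Itgav, Ddr2 and Sdc4 passed too. In the TGF-beta list 2 of 12 were called, at a median of 0.41: the receptor gene Tgfbr1 rose by 1.62 ± 0.25 (0.0100; 8 of 8 fits) and the matrix glycoprotein gene Tnc by 1.35 ± 0.24 (0.0195; 2 of 8 fits). Tgfb2 and Ccn2 passed with the block only.

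**Figure D4:**
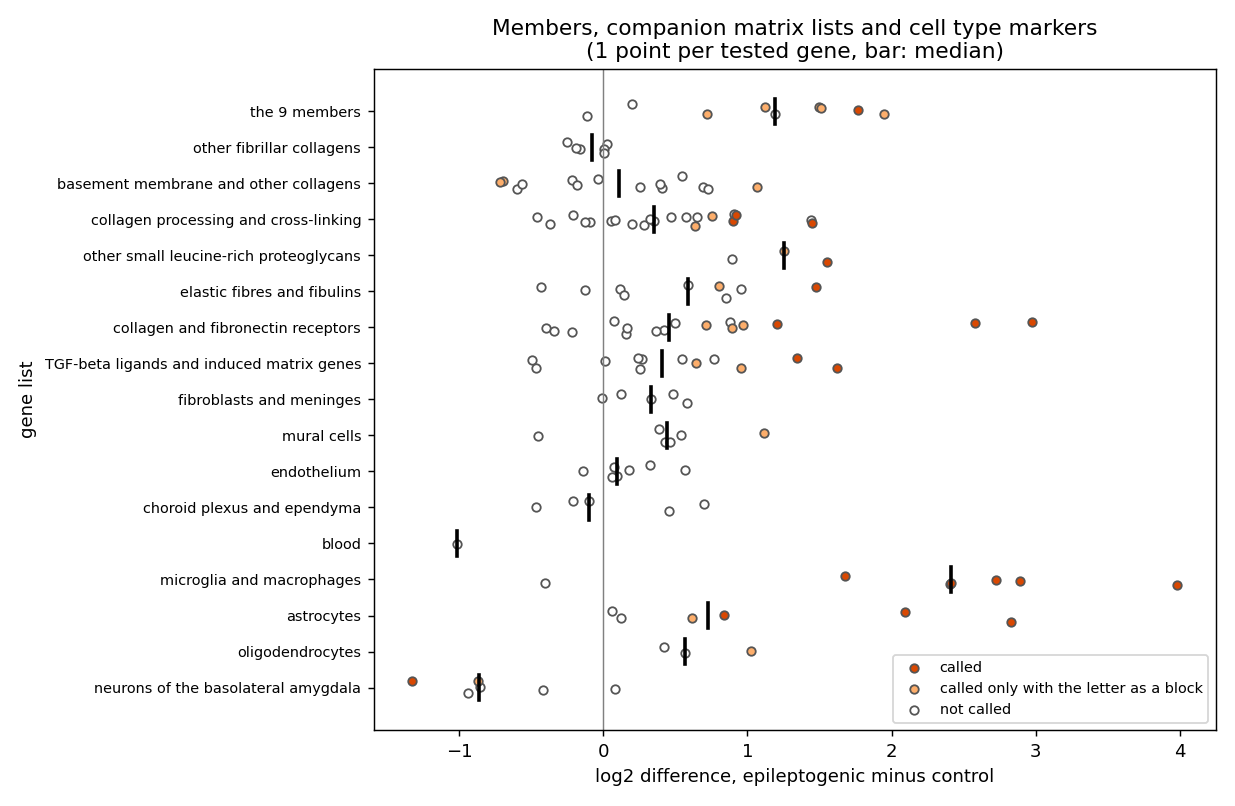
Log2 difference between epileptogenic and control arrays, 1 point per tested gene, for the 9 members, the 7 companion lists and the 9 cell type lists, with a bar at the median. Dark points passed without the block and light orange points with the block only. The medians are 1.19 for the members, -0.08 for the other fibrillar collagens and 0.33 for the fibroblast and meninges markers.

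Markers of the cell types that the dissected tissue could hold were read beside these genes. Of 11 measured fibroblast and meninges markers 6 lay under the filter level, among them the transcription factor genes Foxc1 and Tbx18, and none was listed at 0. Of the other 5, 0 were called in limma with or without the block. Their summed signal was 302 to 404 on control and 341 to 503 on epileptogenic arrays, with 447 on epileptogenic unpaired B. The summed signal of 8 mural cell markers was 309 to 332 on control and 441 to 493 on epileptogenic arrays, and of 6 tested 0 passed, or 1 with the block (Cspg4). That of 7 endothelial markers was 781 to 1124 and 978 to 1321, with 0 of 7 called in either fit, and that of 7 choroid plexus and ependyma markers 310.5 to 5799 and 463 to 5766. Of 7 tested microglia and macrophage markers 6 rose, Cd68 among them. The mean log2 signal of Cd68 on control arrays, 4.12, was under the filter level. Cd68 passed the filter on the mean of all arrays only through its epileptogenic arrays, so the size of its rise is uncertain. Of 6 astrocyte markers 3 rose, Gfap among them, or 4 with the block (S100b). The summed signal of 8 microglial markers was 591 to 920 on control and 3126 to 5651 on epileptogenic arrays. Of 3 tested oligodendrocyte markers 0 were called, or 1 with the block (Mobp), and the 3 blood markers summed to 146 to 223 and 64.3 to 159.6. The 6 neuronal markers, including Slc17a7 of glutamatergic cells, were above the filter level and summed to 3913 to 5576 on control and 1892 to 4479 on epileptogenic arrays. This sum rests mostly on Gad1 of GABAergic cells, at a mean log2 signal of 11.89 on control arrays, against 5.43 for Slc17a7. The median log2 difference of the 6 markers was -0.86. Neurod6, a transcription factor gene of glutamatergic neurons, fell (-1.33 ± 0.29, SE; limma adjusted p = 0.0407), with the block Camk2a as well (adjusted p = 0.00526). Gad1 and Gad2 were not called in either fit, at log2 differences of -0.42 and 0.08. Epileptogenic unpaired B, the highest array for most of the 9 genes, had the highest microglial, endothelial and mural cell sums of the 8 arrays. It had the lowest neuronal and blood sums. Its choroid plexus and ependyma sum was the highest of the epileptogenic arrays, at 5766. Its fibroblast and meninges sum of 447 was below the 503 of epileptogenic paired A. The part of these cell types in the differences of the 9 genes was not tested.

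The named genes most like the mean pattern of the 9 members over the 8 arrays, out of 10355 compared, were Tbc1d4 (Pearson correlation 0.98), Hsd17b11 (0.97), Tent5a (0.97), Rai14 (0.96), Pkn2 (0.96) and F3, the gene of tissue factor (0.96). They were picked for this likeness, so the correlations are a description. Tent5a was called higher in epileptogenic rats, with a log2 difference of 1.46 ± 0.33 (SE; limma adjusted p = 0.0476), and the other 5 were not called without the block. With the block Tbc1d4 (adjusted p = 0.0202), Hsd17b11 (0.0226), Rai14 (0.0432) and F3 (0.00813) were called, and Pkn2 was not (0.0689).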

How the data were processed

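RNA of the laser-dissected basolateral amygdala was measured on 8 Affymetrix Rat Genome 230 2.0 arrays. The authors deposited 1 intensity per probe set and array, made with MAS5 per the submitters' processing notes. Its version and scaling target are not given in the sources used here, and detection calls were not used. The 57 control probe sets were left out, and signals were taken to log2 without further normalization. Of 31042 probe sets, the 18625 whose mean over the arrays lay over the 40th percentile (4.35, log2) were tested. The annotation gave 1 symbol for 20826 probe sets, several for 436 and none for 9780. The brightest probe set by mean log2 signal stood for a gene.

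A 4-group fit in limma 3.58.1 (R 4.3.3) with an intensity trend gave 7 comparisons with two-sided moderated tests, and the script was tested on simulated data. p-values measure the spread between pools of rats. The letters gave the block, since like letters correlated at 0.321 to 0.407 in all 6 pairs of groups. Values with this block are printed where it changes a call. Members, lists and alternatives were chosen with earlier results of these data known. Companion genes were named by the smallest p (at most 4 called per list, or 2 where none was). The neighbour pairs, the check for lone arrays and the promoter stretches were chosen after these values were seen. Promoter sequences come from RefSeq (GRCr8). Figures were drawn with matplotlib 3.10.9.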

Additional observations from a re-analysis of the deposited data

Results flagged for a closer look

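In the 4 epileptogenic arrays, 1 array lay far from the other 3 for Col1a2 and for Dcn. The gap from the highest to the next array, divided by the range of the 4, was 0.834 for the brighter probe set of Col1a2 and 0.907 for Dcn, both above Dixon's 95% limit for 4 values. The array was epileptogenic unpaired B in both cases, with signals of 123 for Col1a2 and 135 for Dcn. The groups themselves hold 2 arrays, so the rule was applied to the epileptogenic and the control arrays of both trainings, over 24 sets of 4 values. Chance gives about 1 such gap in 20, and the cause was not tested.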

How the results depend on the processing

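Under the alternatives, Col1a1, Col1a2, Col3a1, Bgn, Dcn, Lum and Fn1 kept their direction in the comparison of epileptogenic with control arrays wherever they could be fitted. The number of the 9 genes called was 1 in the first fit, 6 with the letter as a block and 3 with the stricter filter (60th percentile, with Bgn, Col1a1 and Lum). It was 2 with probe sets averaged per gene (Bgn and Lum, of 8 genes, since Col1a1 then gave no value). The fit with the block and without epileptogenic unpaired B was an alternative chosen after seeing the data. Leaving out any single array leaves 1 array in its group. The call of Bgn was lost without control unpaired A, control paired A, epileptogenic unpaired B or epileptogenic paired A. Quantile normalization, median centring, an offset of 16, no filter, no intensity trend and array weights left the count at 1. In these fits 330 to 731 of all probe sets were called. After paired training the count of 0 became 1 with the block and 4 with the block and without epileptogenic unpaired B (Bgn, Col1a1, Col3a1 and Lum). Epileptogenic unpaired B is not an array of paired training, so the group means compared there do not include it. The count of 4 therefore does not show a larger difference after paired training. Calls among all probe sets in either direction after paired training were 99 in the first fit and 860 with the block. Over both trainings, such calls were 677 in the first fit, 3022 with the block and 720 with the stricter filter. There were 543 with probe sets averaged per gene. The small difference of Col5a2 changed sign without epileptogenic unpaired B (-0.045, the lowest of -0.045 to 0.44 with an array left out), with the block and without that array (-0.073) and within letter A (-0.11). That of Fbln5 changed sign within letter B (0.27) and ranged from -0.36 to 0.13 with an array left out. Where a probe set fell under the stricter filter it gave no value. The block changed no other call of the 9 genes. The causes were not tested.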
